A study of Mus musculus with 5 samples.

Results

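Messenger RNA of 8 senescence and p53 response genes (Cdkn1a, Cdkn2a, Cdkn2b, Cdkn2c, Trp53, Mdm2, Gdf15 and Ccng1) was followed through droplet single-cell RNA-seq of sorted mouse liver cells. The genes were listed by name, with no threshold on a measured value, and make up 8 of the 31053 genes in the deposited matrices. All libraries came from male Rosa26mTmG;Col1a1-Cre mice of the C57BL/6J strain, in which cells that have used the Col1a1 promoter, together with their progeny, carry GFP. The DEN+WAD mice received diethyl nitrosamine (DEN, a liver carcinogen) at 10 mg/kg when 2 weeks old, then from 6 weeks of age a liquid Western diet with 3.5% (v/v) ethanol (WAD) for 5 months. The control mice received saline and chow on the same schedule. Non-parenchymal liver cells were sorted on vitamin A autofluorescence (VitA), a property of hepatic stellate cells, and on GFP (Col1a1+). This gave a VitA+Col1a1+ and a VitA-Col1a1+ library from each of DEN+WAD and chow, and a single DEN+WAD library labelled VitA-Col1a1-. With 1 library per group, and the number of mice behind each library not given in the sources used here, no difference between conditions has a replicate check. The intervals given are 95% intervals of the counting of unique molecular identifiers (UMIs) and cover counting error only.

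The p53 protein, encoded by Trp53, is a transcription factor that accumulates after DNA damage and other stress and activates genes that stop the cell cycle or start cell death. Among its targets are Cdkn1a, whose product p21 inhibits cyclin-dependent kinases, Mdm2, whose product marks p53 for degradation, Ccng1 (cyclin G1) and Gdf15, a secreted stress-induced cytokine that is also under control of the integrated stress response. Cdkn2a, Cdkn2b and Cdkn2c encode the INK4 inhibitors of CDK4 and CDK6, and Cdkn2a also encodes p19Arf, which restrains Mdm2. Sustained expression of p21 and of the INK4 inhibitors is a hallmark of senescence, a stable growth arrest that has been described in activated stellate cells of the injured liver.

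In the GENCODE M21 annotation of GRCm38, the genome assembly the deposited files use as mm10, Cdkn1a (ENSMUSG00000023067) lies at chr17:29090976-29100727 on the forward strand, where an annotated gene on the other strand, AC167363.2, overlaps it. Cdkn2a (ENSMUSG00000044303) lies at chr4:89274471-89294653 and Cdkn2b (ENSMUSG00000073802) beside it at chr4:89306299-89311039, both on the reverse strand, and Cdkn2c (ENSMUSG00000028551) lies on the same chromosome at chr4:109660876-109667189, also reverse. The 2 coding transcripts of Cdkn2a, which encode p16Ink4a and p19Arf, end within 70 bases of each other. UMIs counted from the 3′ end therefore cannot separate them, and every Cdkn2a value below is their sum. Trp53 (ENSMUSG00000059552) lies at chr11:69580359-69591873 (forward), Mdm2 (ENSMUSG00000020184) at chr10:117688875-117710758 (reverse), Gdf15 (ENSMUSG00000038508) at chr8:70629393-70632456 (reverse) and Ccng1 (ENSMUSG00000020326) at chr11:40748552-40755311 (reverse).

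The 250 bases before each start site in the RefSeq table of GRCm38.p6 were searched for a p53 response element, a pair of adjoining 10-base half-sites, 20 bases in all, which reads the same on both strands. Up to 2 mismatches were allowed with the central C and G of each half-site kept. The windows of 2 of the 8 genes held a match, each with 1 mismatch, and both are printed 5′ to 3′ on the gene's strand with the matched bases in capitals, since these genes are classical p53 targets and the sequences show what such an element looks like. The window of the first Cdkn1a start is chr17:29090729-29090978 on the forward strand, with the element beginning 51 bases before its end, and that of Ccng1 is chr11:40755287-40755536 on the reverse strand, with the element beginning 195 bases before its end.
Cdkn1a: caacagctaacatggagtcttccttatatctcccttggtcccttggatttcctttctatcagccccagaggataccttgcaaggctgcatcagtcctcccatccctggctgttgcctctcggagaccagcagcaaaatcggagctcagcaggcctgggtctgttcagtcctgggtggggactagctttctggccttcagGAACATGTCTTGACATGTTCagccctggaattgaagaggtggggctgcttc
Ccng1: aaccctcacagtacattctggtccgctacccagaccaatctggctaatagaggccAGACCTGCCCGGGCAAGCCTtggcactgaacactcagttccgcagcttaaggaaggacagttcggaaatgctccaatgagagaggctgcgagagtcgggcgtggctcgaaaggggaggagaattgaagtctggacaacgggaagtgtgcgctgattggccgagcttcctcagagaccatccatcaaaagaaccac
Of all 32851 windows in that table, 19 (0.0578%) held a match with at most 1 mismatch and 89 (0.271%) with at most 2. A match is a description of the letters, not of binding, and elements inside introns or farther away, where several p53 targets are known to carry theirs, lay outside these windows.

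The sorts yielded 10481 barcoded VitA+ and 2729 barcoded VitA- cells in the Col1a1+ gates of DEN+WAD livers, 259 and 668 of the same gates in chow livers, and 9870 cells in the library labelled VitA-Col1a1-. Median depth per cell lay between 9105.5 UMIs, in the last, and 24077 UMIs, in VitA+Col1a1+ chow, and 48 barcodes occurred in more than 1 library. Levels are given as UMIs per 1000000 UMIs of a library (CPM). The 10 stellate cell markers summed to 51421 and 47019 CPM in the VitA+Col1a1+ libraries of DEN+WAD and chow, to 26588 and 12802 CPM in the VitA-Col1a1+ libraries, and to 12824 CPM in the library labelled VitA-Col1a1-. The last library held Col1a1 itself at 1062 CPM, against 99.4 to 1834 CPM in the other libraries, so its RNA goes against the Col1a1- label and no direction is drawn from that label. It was also the library with the most macrophage marker RNA (6135 CPM, against 2.44 to 26.9 in the others) and hepatocyte marker RNA (7702 CPM, against 126 to 850).

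Against chow, the DEN+WAD library held more Cdkn1a, Cdkn2c and Trp53 and less Gdf15 in each Col1a1+ gate, with intervals of the ratio that exclude 1. By size, the sole member past 2-fold was Cdkn2c, in the VitA+ gate. Of the 8 genes, 6 reached 5 CPM in at least 1 of the libraries of the VitA+ gate and 7 in the VitA- gate. In the VitA+ gate 1 of the 6 was higher by 2-fold or more, beside 1.41% of all 9907 genes that passed the same filter, and 0 of the 6 were lower, beside 3.94%. In the VitA- gate 0 of the 7 were past 2-fold in either direction, beside 5.04% of 10583 genes higher and 5.54% lower. The median log2 ratio of the members was 0.27 in the VitA+ gate and 0.31 in the VitA- gate, where the median of all genes was -0.08 and -0.03. TMM scaling raised the median of all genes by 0.19 in the VitA+ gate and by 0.08 in the VitA- gate, so ratios near 1 in the VitA+ gate depend on the scaling. The Gdf15 ratio there was 0.785 in the main setting and 0.894 under TMM scaling, for which no interval was computed.

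**Figure D1:**
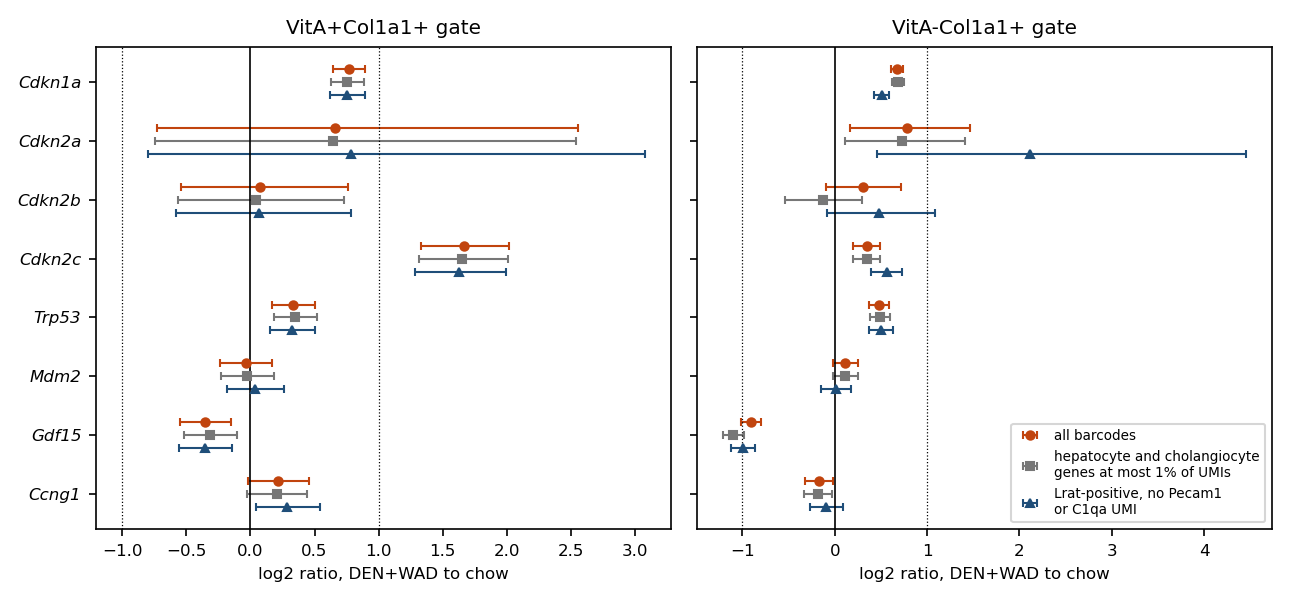
Log2 ratio of DEN+WAD to chow for each gene (horizontal axis), with 95% counting intervals, in the VitA+Col1a1+ gate (left) and the VitA-Col1a1+ gate (right). Cdkn2c stands at 1.66 on the left and 0.34 on the right, and Gdf15 at -0.35 and -0.91.

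Cdkn1a, the gene of p21, was measured at 145 CPM in VitA+Col1a1+ DEN+WAD and 85.4 CPM in VitA+Col1a1+ chow, and at 233 and 146 CPM in the VitA-Col1a1+ libraries of DEN+WAD and chow. The library labelled VitA-Col1a1- held 238 CPM. The DEN+WAD level was thus 1.70-fold the chow level in the VitA+ gate (1.56 to 1.86) and 1.60-fold in the VitA- gate (1.53 to 1.68). The difference in log2 ratio between the gates was 0.09, with an interval that includes 0. VitA-Col1a1+ chow lay level with VitA+Col1a1+ DEN+WAD, and within each condition the VitA- gate was above the VitA+ gate, 1.70-fold in chow and 1.60-fold in DEN+WAD. In Lrat-positive cells without a UMI of Pecam1 or C1qa, DEN+WAD held 1.69 times the chow level in the VitA+ gate and 1.42 times in the VitA- gate. In the VitA- gate the 10 endothelial markers, which sum to 2138 CPM in DEN+WAD and 722 CPM in chow, moved with the condition, and the Cdkn1a level was higher in Pecam1-positive cells than in Lrat-positive cells. The ratio of 1.42 leaves out cells with a UMI of Pecam1, but its cells were not the same mixture in the 2 conditions. Their stellate markers summed to 34517 CPM in DEN+WAD and 14495 CPM in chow, and their portal fibroblast markers to 495 and 1173 CPM. A change in the mixture of cells and a change within cells cannot be told apart.

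**Figure D2:**
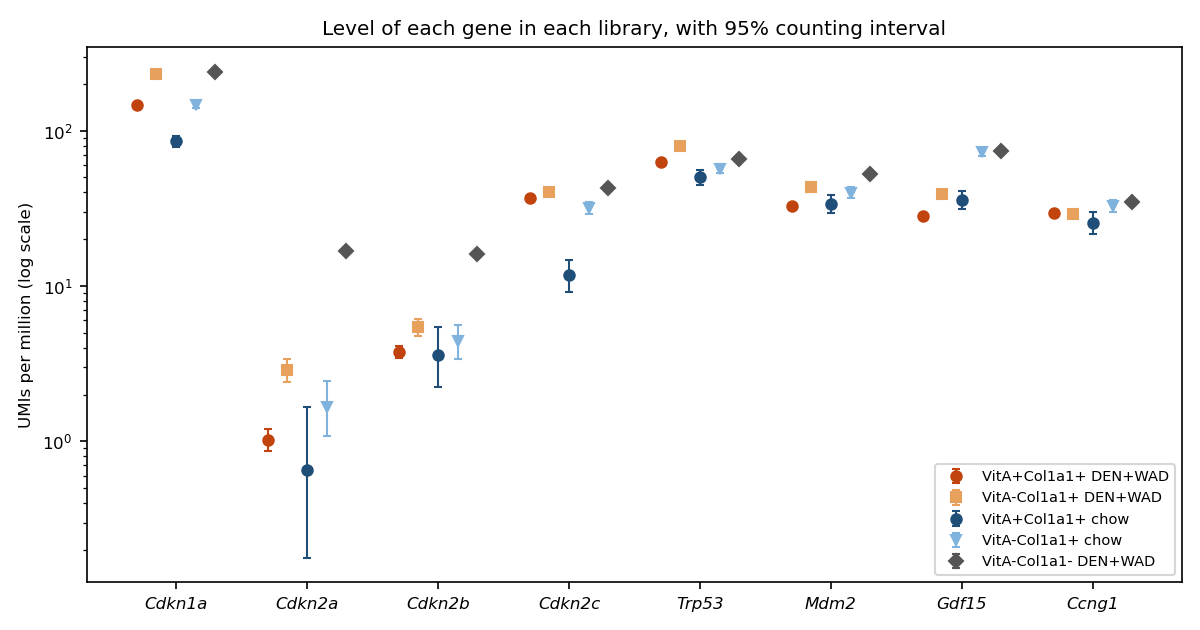
UMIs per 1000000 (log scale, vertical) of each of the 8 genes (horizontal) in each of the 5 libraries, with 95% counting intervals. The Cdkn2a and Cdkn2b points of the library labelled VitA-Col1a1-, at 16.9 and 16.1 CPM, lie above those of the other 4 libraries.

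Cdkn2a, the gene of p16Ink4a and p19Arf, was close to the limit of detection in the sorted Col1a1+ cells. It was counted at 154 UMIs (1.03 CPM) in VitA+Col1a1+ DEN+WAD, 4 UMIs (0.651 CPM) in VitA+Col1a1+ chow, 137 UMIs (2.88 CPM) in VitA-Col1a1+ DEN+WAD and 25 UMIs (1.67 CPM) in VitA-Col1a1+ chow. In the library labelled VitA-Col1a1- it reached 1783 UMIs (16.9 CPM), 5.87-fold the level of VitA-Col1a1+ DEN+WAD (4.93 to 7.03). Between DEN+WAD and chow the ratio came to 1.58 in the VitA+ gate with an interval of 0.604 to 5.87, so no difference was detectable there at this depth, and 1.73 (1.12 to 2.76) in the VitA- gate. In the VitA- gate Lrat-positive and Pecam1-positive cells gave opposite directions, in classes that share cells. Of the 519 Pecam1-positive cells of DEN+WAD 366 lacked a UMI of Lrat and C1qa, and of the 51 of chow 33 did. In Lrat-positive cells Cdkn2a stood at 1.44 CPM (51 UMIs) in DEN+WAD and 0.348 CPM (4 UMIs) in chow, a ratio of 4.14 (1.52 to 15.8). In Pecam1-positive cells it stood at 10.0 CPM (87 UMIs) in DEN+WAD and 18.6 CPM (21 UMIs) in chow, a ratio of 0.539 (0.332 to 0.915). The chow side of each rests on few molecules, and the Pecam1-positive chow cells numbered 51. Part of the signal was held by very few cells: 7 cells held 68.0% of the Cdkn2a UMIs in VitA-Col1a1+ chow, where their endothelial markers summed to 17227 CPM against 568 in the remaining cells.

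Cdkn2b, the neighbouring gene of p15Ink4b, was measured at 3.77 CPM in VitA+Col1a1+ DEN+WAD and 3.58 CPM in VitA+Col1a1+ chow, at 5.44 and 4.40 CPM in the VitA-Col1a1+ libraries of DEN+WAD and chow, and at 16.1 CPM in the library labelled VitA-Col1a1-. Neither gate gave an interval that excluded 1, at 1.05 (0.688 to 1.69) in the VitA+ gate and 1.24 (0.940 to 1.64) in the VitA- gate. The second becomes 0.913 when barcodes rich in hepatocyte or cholangiocyte RNA are left out. In Lrat-positive cells of the VitA- gate it was 1.55 (1.06 to 2.32), from 157 UMIs in DEN+WAD and 33 in chow, and 1.40 (0.944 to 2.13) without cells that had a UMI of Pecam1 or C1qa.

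Cdkn2c, the gene of p18Ink4c, had the largest ratio between conditions of the 8 genes, counted over whole libraries. The VitA+Col1a1+ chow library held 11.7 CPM (72 UMIs) and stood apart below the other 4, which held 37.1 CPM in VitA+Col1a1+ DEN+WAD, 40.2 CPM in VitA-Col1a1+ DEN+WAD, 31.7 CPM in VitA-Col1a1+ chow and 43.0 CPM in the library labelled VitA-Col1a1-. DEN+WAD stood 3.17-fold above chow (2.51 to 4.05) in the VitA+ gate and 1.27-fold (1.15 to 1.41) in the VitA- gate. The 2 log2 ratios differed by 1.32 (0.95 to 1.68), which is a difference beyond counting error between single libraries. In chow the VitA- gate was 2.70-fold above the VitA+ gate (2.11 to 3.51), while in DEN+WAD it was 1.08-fold above. The VitA+ ratio was 3.09 in Lrat-positive cells without a UMI of Pecam1 or C1qa and 3.02 without cells that expressed 3 or more cycling genes. It stayed between 2.89 and 3.61 over the 8 alternatives that change cells or scaling. As shares of Lrat-positive cells thinned to 5000 UMIs each, 15.8% of VitA+Col1a1+ DEN+WAD cells and 5.35% of VitA+Col1a1+ chow cells had a Cdkn2c UMI.

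Trp53 itself was measured at 63.0 CPM in VitA+Col1a1+ DEN+WAD and 50.0 CPM in VitA+Col1a1+ chow, at 79.3 and 56.8 CPM in the VitA-Col1a1+ libraries of DEN+WAD and chow, and at 65.7 CPM in the library labelled VitA-Col1a1-. The DEN+WAD level was 1.26-fold the chow level (1.12 to 1.42) in the VitA+ gate and 1.40-fold (1.30 to 1.51) in the VitA- gate, a difference shared by the 2 gates and past 1 in each under the alternatives run, at 1.21 to 1.44 and 1.31 to 1.47.

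Mdm2, the p53 target that limits p53, was measured at 33.0 CPM in VitA+Col1a1+ DEN+WAD, 33.8 CPM in VitA+Col1a1+ chow, 43.1 CPM in VitA-Col1a1+ DEN+WAD, 39.9 CPM in VitA-Col1a1+ chow and 52.9 CPM in the library labelled VitA-Col1a1-. Its DEN+WAD levels relative to chow, 0.974 (0.848 to 1.12) and 1.08 (0.987 to 1.19), include 1, and the first turns to 1.11 under TMM scaling. Ccng1 ranged from 25.5 CPM in VitA+Col1a1+ chow to 34.8 CPM in the library labelled VitA-Col1a1-, with 29.6 CPM in VitA+Col1a1+ DEN+WAD, 29.0 CPM in VitA-Col1a1+ DEN+WAD and 32.7 CPM in VitA-Col1a1+ chow. Its ratio was 1.16 (0.989 to 1.37) in the VitA+ gate and 0.888 (0.800 to 0.986) in the VitA- gate. Of the p53 targets Cdkn1a, Mdm2 and Ccng1, Cdkn1a alone was higher in DEN+WAD beyond counting error in both gates.

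Gdf15, the stress-induced cytokine, had the opposite direction. It was measured at 28.2 CPM in VitA+Col1a1+ DEN+WAD and 36.0 CPM in VitA+Col1a1+ chow, at 38.9 and 72.9 CPM in the VitA-Col1a1+ libraries of DEN+WAD and chow, and at 74.2 CPM in the library labelled VitA-Col1a1-. DEN+WAD held 0.785 of the chow level (0.685 to 0.902) in the VitA+ gate and 0.533 (0.495 to 0.575) in the VitA- gate, and the log2 ratios differed by 0.56 (0.33 to 0.78). In chow the VitA- gate held 2.03-fold the level of the VitA+ gate (1.75 to 2.35). Within Lrat-positive cells of the VitA- gate, Gdf15 stood at 70.0 CPM in chow and 33.8 CPM in DEN+WAD, a ratio of 0.483 (0.441 to 0.529), and the share of thinned cells with a UMI was 23.5% against 10.3%. Portal fibroblast markers were also lower in the VitA-Col1a1+ DEN+WAD library (593 CPM, against 1188 in chow) and stellate markers higher, so a change in the mixture of cells and a change within cells cannot be told apart.

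Gdf15 in every library, and Cdkn2b in each DEN+WAD library, stood at a higher level in barcodes that also carried hepatocyte or cholangiocyte RNA. Barcodes in which those markers made up more than 1% of UMIs numbered 33 in the VitA+ gate and 26 in the VitA- gate of DEN+WAD, 2 and 3 in those of chow, and 779 in the library labelled VitA-Col1a1-. In the last library they held Gdf15 at 463 CPM against 44.7 CPM in the remaining barcodes, and in VitA-Col1a1+ DEN+WAD at 461 against 33.3 CPM. They carried 44.0% and 15.6% of all Gdf15 UMIs of those libraries, though 7.05% and 1.31% of all UMIs. In VitA+Col1a1+ DEN+WAD they carried 3.38% of the Gdf15 and 1.42% of the Cdkn2b UMIs, and 0.222% of all UMIs. Cdkn2b was higher in these barcodes, at 144 against 6.41 CPM in the library labelled VitA-Col1a1- and at 111 against 4.04 CPM in VitA-Col1a1+ DEN+WAD. They held 63.0% of the Cdkn2b UMIs of the library labelled VitA-Col1a1-. In VitA-Col1a1+ DEN+WAD they held 69 Cdkn2b UMIs, and a single cell of that library held 50 of its 259. Whether that cell was among them was not tested. In the library labelled VitA-Col1a1- Cdkn2a was 4.72-fold higher in these barcodes, at 63.0 against 13.4 CPM. Ccng1 (2.28-fold), Cdkn1a (1.76-fold) and Mdm2 (1.40-fold) were also higher there, and Trp53 (0.684-fold) and Cdkn2c (0.543-fold) lower. Without these barcodes Gdf15 in the VitA- gate gave a DEN+WAD to chow ratio of 0.466 (0.431 to 0.505), past 2-fold. Whether these barcodes were hepatocytes, doublets or cells with free RNA was not tested.

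**Figure D3:**
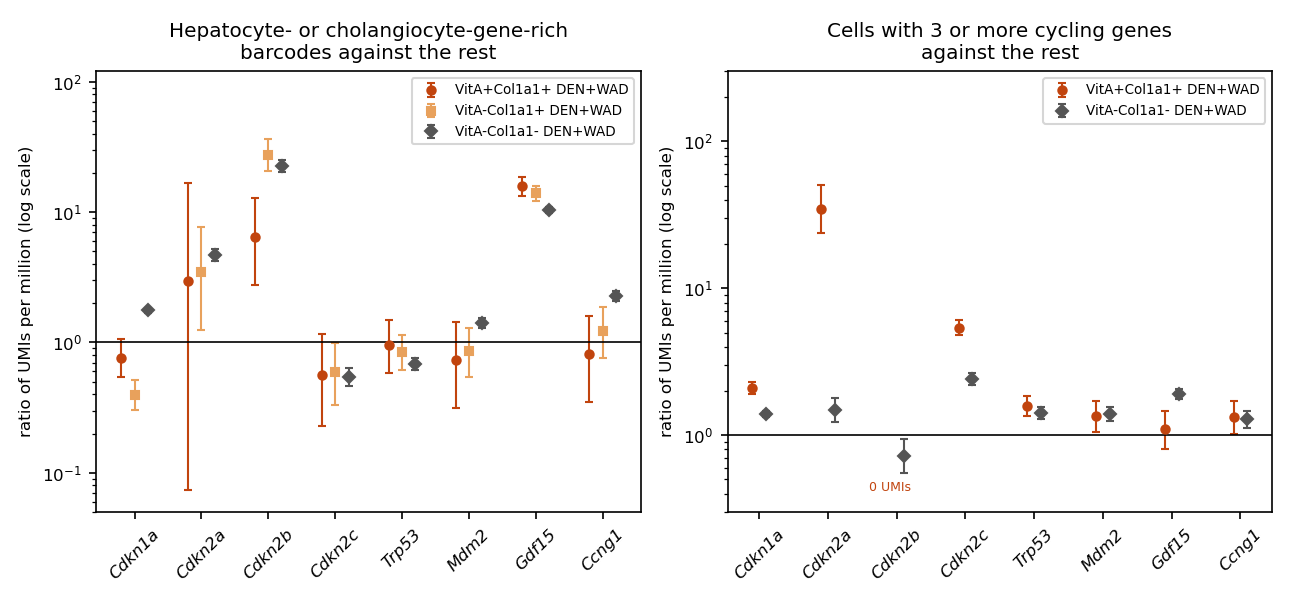
Ratio of UMIs per 1000000 (log scale, vertical) for each gene between barcodes rich in hepatocyte or cholangiocyte RNA and the remaining barcodes (left), and between cells with 3 or more of 10 cycling genes and the remaining cells (right), with 95% counting intervals, where grey diamonds mark the library labelled VitA-Col1a1-. On the left Gdf15 stands at 15.7, 13.9 and 10.4, and on the right Cdkn2a and Cdkn2c stand at 34.8 and 5.38 in VitA+Col1a1+ DEN+WAD.

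Cycling cells of VitA+Col1a1+ DEN+WAD held more Cdkn2a, Cdkn2c and Cdkn1a than the remaining cells. There 52 cells with 5000 or more UMIs had UMIs of at least 3 of 10 cycling genes, such as Mki67 and Top2a, and 51 of them were Lrat-positive. Cdkn2a stood at 26.4 CPM (41 UMIs) in them against 0.757 CPM in the remaining cells, 34.8-fold higher (23.7 to 50.2). Cdkn2c stood at 191 against 35.5 CPM (5.38-fold, 4.77 to 6.05) and Cdkn1a at 303 against 144 CPM (2.10-fold). Trp53 (1.58-fold, 1.34 to 1.86), Mdm2 (1.35-fold, 1.05 to 1.71) and Ccng1 (1.33-fold, 1.01 to 1.71) were also higher in the cycling cells. Gdf15 in these cells stood at 1.10-fold (0.806 to 1.46). Cdkn2b had 0 UMIs in them, against 3.81 CPM in the remaining cells, which allows a ratio of up to 0.626. Cycling cells were deeper, with a median of 30570.5 UMIs against 13309, and a cell with more UMIs passes a rule on detected genes more readily. When cycling cells were picked after thinning every cell to 5000 UMIs, 32 remained and the ratios were 48.3 for Cdkn2a, 7.98 for Cdkn2c and 3.04 for Cdkn1a. In the 227 cycling cells of the library labelled VitA-Col1a1-, Cdkn2c was 2.40-fold and Cdkn2a 1.49-fold higher. Gdf15 (1.91-fold), Trp53 (1.42-fold), Cdkn1a (1.40-fold), Mdm2 (1.40-fold) and Ccng1 (1.29-fold) were higher there too, and Cdkn2b lower (0.727-fold). The remaining libraries had 12 or fewer such cells, too few for a ratio.

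Cells were next classed by a UMI of Lrat, Pecam1 or C1qa, in cells with 5000 or more UMIs thinned to 5000. These are genes of stellate cells, endothelial cells and macrophages. Classes with 50 or more cells were Lrat in all 5 libraries, Pecam1 in every library but VitA+Col1a1+ chow, and C1qa in the last alone. In that library 2266 cells were C1qa-positive but 557 of these lacked a UMI of Lrat or Pecam1, so the classes overlap there. The macrophage markers summed to 15856 CPM in its C1qa-positive cells and to 25064 CPM in the 557.

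Cdkn1a was the most widely detected in Pecam1-positive cells. In the library labelled VitA-Col1a1- 64.5% of Pecam1-positive cells had a UMI, against 41.3% of Lrat-positive and 43.8% of C1qa-positive cells, with intervals of Pecam1 apart from both others. The shares were 60.7% and 38.0% in Pecam1- and Lrat-positive cells of VitA+Col1a1+ DEN+WAD, and 67.4% and 45.6% in VitA-Col1a1+ DEN+WAD. They were 41.2% and 35.2% in VitA-Col1a1+ chow, with overlapping intervals. Pecam1-positive cells were not endothelial cells alone. Their macrophage and endothelial markers summed to 8608 and 6621 CPM in the library labelled VitA-Col1a1-. In VitA+Col1a1+ DEN+WAD their stellate and endothelial markers summed to 24935 and 7491 CPM. Without a UMI of Lrat or C1qa, 69.9% of Pecam1-positive cells of the library labelled VitA-Col1a1- had a Cdkn1a UMI. Between conditions in the VitA- gate, the Cdkn1a level of Pecam1-positive cells was 399 CPM in DEN+WAD and 183 CPM in chow, a ratio of 2.18 (1.90 to 2.53). Mdm2 had the same order in the Col1a1+ libraries of DEN+WAD. It was detected in 24.7% of Pecam1-positive against 13.9% of Lrat-positive cells in VitA+Col1a1+ DEN+WAD, and in 26.8% against 17.5% in VitA-Col1a1+ DEN+WAD. In the library labelled VitA-Col1a1- the shares of Pecam1-, C1qa- and Lrat-positive cells were 23.7%, 21.8% and 19.6%. There C1qa-positive cells were above Pecam1-positive cells at full depth (49.7% and 44.5%) and with 2 UMIs needed (23.4% and 15.7%).

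**Figure D4:**
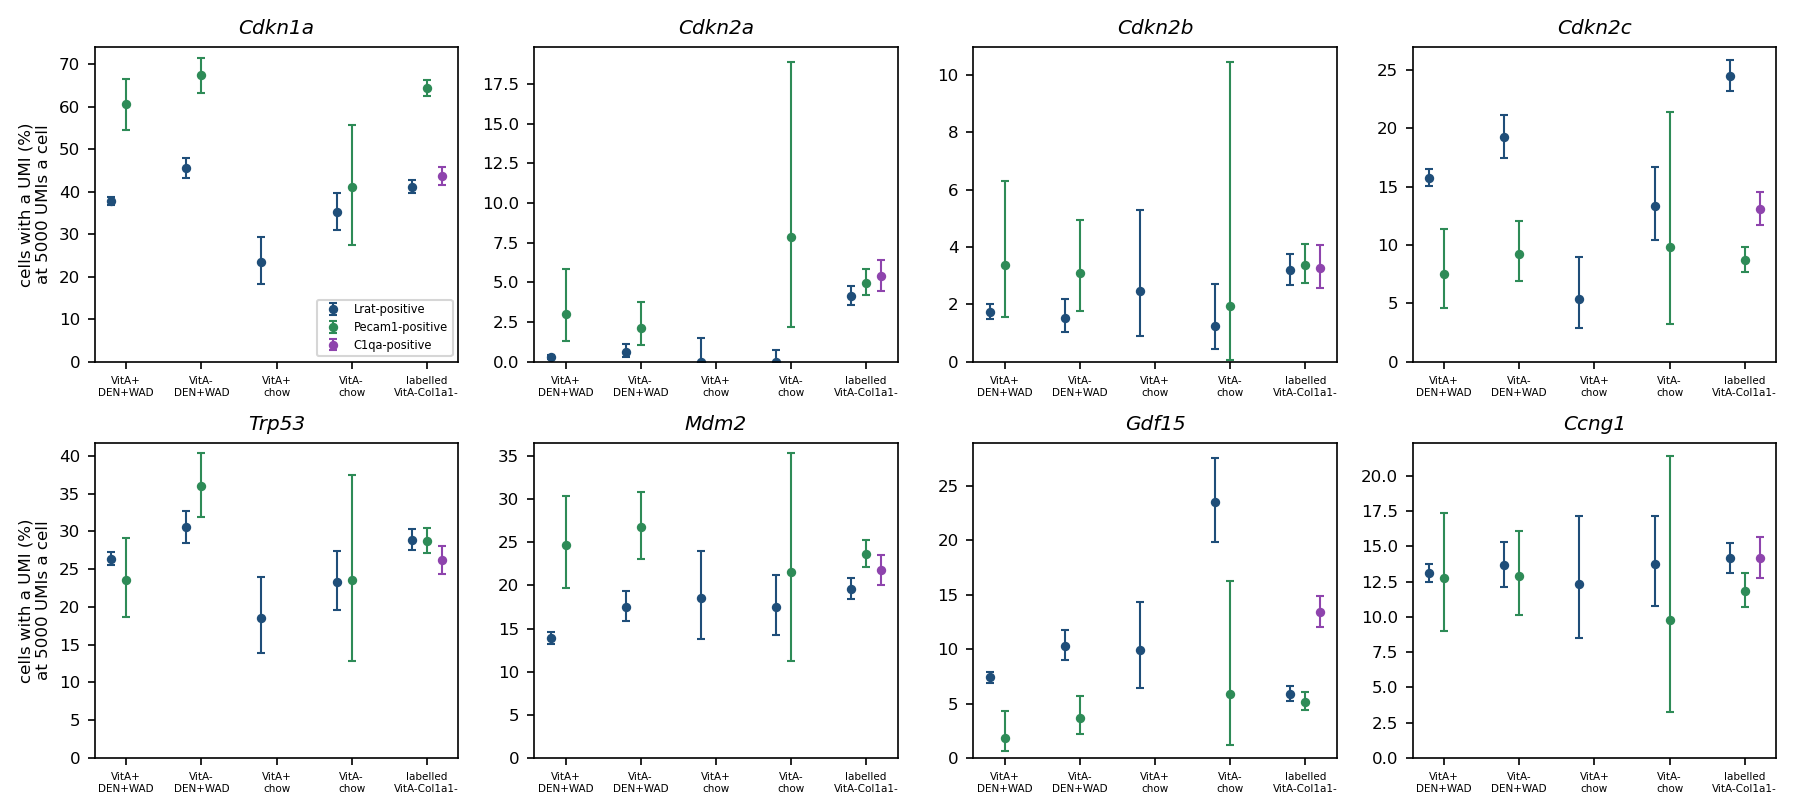
Share of cells with a UMI of each gene (vertical, %) in Lrat-positive (blue), Pecam1-positive (green) and C1qa-positive (purple) cells thinned to 5000 UMIs, by library, with exact binomial 95% intervals. Cdkn1a is higher in Pecam1-positive cells of the DEN+WAD libraries, Cdkn2c in Lrat-positive cells, and Gdf15 in C1qa-positive cells (13.4%) of the library labelled VitA-Col1a1-.

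Cdkn2c had the reverse order. It was detected in 15.8% of Lrat-positive and 7.49% of Pecam1-positive cells of VitA+Col1a1+ DEN+WAD, in 19.2% and 9.25% in VitA-Col1a1+ DEN+WAD, and in 24.5%, 8.74% and 13.1% of Lrat-, Pecam1- and C1qa-positive cells of the library labelled VitA-Col1a1-. Gdf15 was detected in 7.40% of Lrat-positive and 1.87% of Pecam1-positive cells of VitA+Col1a1+ DEN+WAD, and in 10.3% and 3.66% in VitA-Col1a1+ DEN+WAD. In the library labelled VitA-Col1a1- its share was 13.4% in C1qa-positive cells, 5.89% in Lrat-positive and 5.14% in Pecam1-positive cells. It was 24.2% in the 557 C1qa-positive cells without a UMI of Lrat or Pecam1, where hepatocyte markers summed to 14172 CPM. Without barcodes rich in hepatocyte or cholangiocyte RNA the C1qa-positive share was 12.2%.

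Trp53, Cdkn2b, Ccng1 and Cdkn2a did not separate the classes of the library labelled VitA-Col1a1- clearly. Trp53 was detected in 28.9%, 28.7% and 26.2% of Lrat-, Pecam1- and C1qa-positive cells, Ccng1 in 14.2%, 11.9% and 14.2%, and Cdkn2b in 3.20%, 3.39% and 3.27%. The shares for Cdkn2a were 4.14%, 4.97% and 5.38%. In Lrat-positive cells of the other libraries Cdkn2a was detected in 0.309% in the VitA+ gate and 0.637% in the VitA- gate of DEN+WAD. In chow it was detected in 0 of 243 cells of the VitA+ gate and 0 of 480 of the VitA- gate, where exact intervals allow up to 1.51% and 0.766%. The library labelled VitA-Col1a1- thus stood above the others in its Lrat-positive cells also when cells with a UMI of Pecam1 or C1qa were left out, at 9.99 CPM against 0.274 to 1.18 CPM. Hepatocyte markers in those cells summed to 2758 CPM, against 103 to 229 CPM, and their part in the Cdkn2a level was not tested.

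Of 25 further p53 target genes, 19 passed the filter in each gate and 0 were past 2-fold in either, where 1.41% of all genes were higher and 3.94% lower in the VitA+ gate and 5.04% and 5.54% in the VitA- gate. A count of 0 among 19 genes is close to these shares and is no result about the list. Their median log2 ratio was -0.18 in the VitA+ gate, with 8 of 19 above 0, and 0.14 in the VitA- gate, with 11 of 19 above 0. Of the 10 regulators of p53, such as Mdm4 and Atm, 8 were tested in each gate and 0 were past 2-fold. The same held for 11 further CDK inhibitors and genes of the RB axis, of which 3 were above 0 in each gate.

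Secretory genes linked with senescence were past 2-fold in both directions. In the VitA+ gate 7 of 18 tested were higher by 2-fold or more and 3 lower, beside 1.41% and 3.94% of all genes. In the VitA- gate 5 of 21 were higher and 2 lower, beside 5.04% and 5.54%. Markers of other cells differed in the same gates. Endothelial markers were past 2-fold lower for 7 of 10 in the VitA+ gate (310 CPM in DEN+WAD, 662 CPM in chow) and higher for 10 of 10 in the VitA- gate (2138 and 722 CPM). Hepatocyte markers were higher for 5 of 7 tested in the VitA+ gate (237 and 126 CPM) and for 9 of 10 in the VitA- gate (850 and 201 CPM). Their part in the counts of secretory genes was not tested. Cxcl2, a neutrophil chemokine, was 4.25-fold (3.46 to 5.29) and 3.87-fold (3.19 to 4.73) higher in DEN+WAD. Ccl7 was 3.76-fold higher in the VitA+ gate and Ccl2 3.62-fold in the VitA- gate, both monocyte chemokines. Timp1, an inhibitor of matrix metalloproteinases, was 53.9-fold higher in the VitA+ gate (28.4 to 118), from 9 UMIs in chow. Igfbp3, which binds insulin-like growth factors, was lower in both, at 0.478-fold and 0.419-fold, and Igfbp5 was 0.201-fold in the VitA- gate. Il1a moved oppositely, at 0.289-fold in the VitA+ gate and 3.34-fold in the VitA- gate. Spp1 was 0.205-fold in the VitA+ gate, where the cholangiocyte markers Epcam (1.35 CPM in DEN+WAD, 5.37 CPM in chow) and Sox9 (2.91 and 9.76 CPM) were also lower.

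The remaining lists are read against the same shares of all genes, 1.41% higher and 3.94% lower in the VitA+ gate and 5.04% and 5.54% in the VitA- gate. Among nuclear and lysosomal genes linked with senescence, Glb1, the gene of the lysosomal beta-galactosidase, was 2.05-fold higher in the VitA- gate, 1 of 8 tested, and 0 of 8 were past 2-fold in the VitA+ gate. Among 4 cycling genes tested in each gate 2 were higher by 2-fold or more. They were Cenpf (2.20-fold) and Top2a (27.2-fold, 7.51 to 225, from 2 UMIs in chow) in the VitA+ gate. In the VitA- gate they were Mki67 (2.29-fold) and Cenpf (2.45-fold). Of the 4 in the VitA+ gate 3 had a log2 ratio above 0, while Mki67 went the other way, at 7.57 CPM in DEN+WAD and 12.2 CPM in chow. Of 12 immediate-early and heat-shock genes, 3 were past 2-fold in the VitA- gate, the heat-shock genes Hspa1a (4.09-fold), Hspa1b (4.06-fold) and Dnajb1 (2.84-fold), and 0 in the VitA+ gate. The integrated stress response list had 1 of 5 past 2-fold in the VitA+ gate, Atf5 (2.47-fold), and 0 of 6 in the VitA- gate.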

How the data were processed

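Each library's matrix of raw UMI counts per gene and cell was deposited by the authors, who made it with Cell Ranger against mm10 (version 3.1.0 in the methods and in 4 file headers, 6.1.2 in that of the library labelled VitA-Col1a1-). The labels name more than one version of the 3′ kit, which was not settled. All 5 libraries entered, with 1 library per group, so no test, SD or p-value is given. The members and lists were chosen with earlier results of these data known.

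UMIs were summed over all barcodes and scaled to 1000000 UMIs. Levels have exact Poisson intervals, ratios conditional binomial intervals and shares Clopper-Pearson intervals, all at 95%. Genes with 5 or more CPM in either library were compared, and 2-fold by size counted as a difference. A group without UMIs was read against a floor of 3 UMIs. For classes, cells with 5000 or more UMIs were thinned to 5000 (seed 7), a cell was positive with 1 or more UMIs, and a class needed 50 cells. From each list, up to 3 genes past 2-fold in each direction were named. No doublet caller was run. Identifiers matched GENCODE M21 for 30934 of 31053 genes. Ratios and thinning were checked on simulated counts. Python 3.11.15, numpy 2.4.6, scipy 1.17.1, pandas 2.3.3 and, for TMM factors, edgeR 4.0.16 in R 4.3.3 were used. Library depth ranged from 6145748 to 149936344 UMIs, so the chow libraries set the precision of the ratios.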

Additional observations from a re-analysis of the deposited data

Results flagged for a closer look

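Mdm2 and Ccng1 had ratios of DEN+WAD to chow on opposite sides of 1 in the 2 gates. For Ccng1 the log2 ratio of the VitA+ gate exceeded that of the VitA- gate by 0.39, and for Mdm2 the difference was -0.15, with a counting interval that includes 0. The difference between the gates was not tested against replicates, because each side is 1 library.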

How the results depend on the processing

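The VitA+ gate kept 1 member past 2-fold, Cdkn2c, under the 10 alternatives run. In the VitA- gate the number past 2-fold was 0, and became 1 (Gdf15) with the mean of per-cell CPM, without the 5% of barcodes with most UMIs, and with hepatocyte and cholangiocyte genes at most 1% of UMIs, the last chosen after seeing the data. Of 8 members, the number highest in Lrat-positive cells was 2 and became 1 with the expected share over every thinning and with 2 UMIs needed to call the member. The number highest in Pecam1-positive cells was 3 and became 1 at full depth and with 2 UMIs needed, and that in C1qa-positive cells was 3 and became 5 and 6. Without a UMI of the other 2 class genes Mdm2 moved from Pecam1 to C1qa. With the expected share over every thinning Cdkn2b moved from Pecam1 to C1qa, and Trp53 from Lrat to Pecam1. With hepatocyte and cholangiocyte genes at most 1% of UMIs the numbers for Lrat, Pecam1 and C1qa were 3, 3 and 2, and with 2 UMIs needed to call the class 2, 4 and 2. Directions changed for Mdm2 in the VitA+ gate, between 0.927 and 1.11, and for Cdkn2b in the VitA- gate, between 0.913 and 1.40, both with main intervals that include 1. The Cdkn2a ratio of the VitA- gate ranged from 1.24 to 4.33. The cause of these changes was not tested. No paired analysis was possible because each group holds 1 library and the groups share fewer than 2 replicate numbers, and leaving out a replicate would leave a group empty. Depth limits Cdkn2a and Cdkn2b in chow, at 4 and 22 UMIs in the VitA+ gate.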

Other observations

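In Lrat-positive cells without a UMI of Pecam1 or C1qa, thinned to 5000 UMIs, cells with a Cdkn1a UMI also held more RNA of the integrated stress response list (Atf4, Ddit3, Trib3 and others), at 1.22, 1.25, 1.28, 1.35 and 1.26 times the level of cells without one in VitA+Col1a1+ DEN+WAD, VitA-Col1a1+ DEN+WAD, VitA+Col1a1+ chow, VitA-Col1a1+ chow and the library labelled VitA-Col1a1-. For the list of further p53 targets the same ratios were 1.05, 1.13, 1.20, 1.12 and 1.39, and for immediate-early and heat-shock genes 0.986, 0.953, 1.05, 1.03 and 1.08. Cells are not replicates, and these ratios carry no test. When the same cells were split into 4 groups of near-equal size by immediate-early and heat-shock RNA, Cdkn1a in the library labelled VitA-Col1a1- stood at 143 CPM (130 to 156) in the lowest group and 236 CPM (220 to 253) in the highest. In VitA+Col1a1+ DEN+WAD it stood at 159 and 148 CPM, while Gdf15 stood at 23.9 and 39.8 CPM. Gdf15 was lower in the highest group of VitA-Col1a1+ DEN+WAD (41.7 and 31.9 CPM) and VitA-Col1a1+ chow (106 and 86.2 CPM). It was higher there in VitA+Col1a1+ chow (42.1 and 48.3 CPM) and the library labelled VitA-Col1a1- (16.1 and 24.5 CPM). Intervals overlapped in each of these other libraries.

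In these cells of the library labelled VitA-Col1a1-, Cdkn2a was detected in 5.91% of cells with a Cdkn1a UMI and in 2.99% of cells without, and in VitA+Col1a1+ DEN+WAD in 0.348% and 0.275%, with overlapping intervals. Mdm2 was detected in 21.3% and 15.9% in the library labelled VitA-Col1a1-. In VitA+Col1a1+ DEN+WAD its shares were 14.9% (13.8% to 16.1%) and 13.2% (12.3% to 14.0%), with intervals that overlap. The order was the reverse in the VitA- gate, at 15.1% and 18.0% in DEN+WAD and 14.4% and 19.2% in chow. In VitA+Col1a1+ chow the shares were 21.8% and 17.0%. Intervals overlapped in these 3 libraries also.

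Over 9 classes of cells from the 5 libraries, which share libraries and depth, the genes most like Cdkn1a in log2(CPM + 1), of 8750 compared, were Btbd9, Snx3, Gchfr, Eif4b and Zfp277 (Pearson r of 0.970 to 0.977). For Gdf15 they were Prkcd, G6pdx, Pygl, Guca1a and Abcd2 (0.972 to 0.984), and for Ccng1 Trappc2l, Cox7b, Ssr4, Atp5g1 and Timm8b (0.967 to 0.979). These are descriptions, chosen as the highest of many.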
